A study of Mus musculus with 58 samples.

Results

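The lungs of mice given the highest dose of the polycyclic aromatic hydrocarbon indeno(1,2,3-cd)pyrene (IP) were compared with the lungs of mice given the lowest dose, with no vehicle mice in the contrast. The 10 arrays were taken by their titles, 5 lung arrays of group D3 (50 mg/kg-bw/day, mice 16 to 20) and 5 lung arrays of group D1 (12.5 mg/kg-bw/day, mice 6 to 10), of 20 lung arrays and 58 arrays in all. Every animal was a male Muta™Mouse, a transgenic strain that carries a bacterial lacZ reporter for mutations, aged about 13 weeks and housed alone. Each was gavaged daily for 28 days with IP dissolved in olive oil (the vehicle mice, D0, with olive oil only, and a middle group, D2, with 25 mg/kg-bw/day), and organs were frozen 72 hours after the last dose. Total RNA of each lung was labelled with Cy5 and hybridised on 1 dual-colour Agilent mouse array against a Cy3-labelled pool of RNA from 11 mouse cell lines. Every value below is therefore a log2 ratio of the lung to that pool, normalised within its array, and a difference of 1 between groups is a doubling of the ratio. Separate mice were the replicates.

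IP and related hydrocarbons bind the aryl hydrocarbon receptor (AhR), which then pairs with ARNT in the nucleus, binds DNA at a short core motif and switches on genes of hydrocarbon metabolism, above all the CYP1 enzymes. These enzymes turn the hydrocarbon into products that can be excreted but also into reactive ones that bind DNA, and damaged DNA can stabilise p53, which induces inhibitors of the cell cycle and genes of apoptosis. The cells of an adult lung divide rarely, and the genes of DNA replication and mitosis are transcribed almost only in dividing cells, many mitotic genes through CCAAT boxes and CHR elements close to their start sites.

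More genes of cell division than the 7 chosen here passed the adjusted p between the doses with the slide as a block. The promoters of these 7 (Ccnb2 under the fold limit) and of the 3 AhR targets that passed are shown with their motifs. Each is the stretch of 250 bases that ends just before the RefSeq start site in GRCm38.p6, written 5′ to 3′ on the strand of the gene, and motifs were searched on both strands. In the AhR targets the capitals mark GCGTG, the core that AhR and ARNT bind, or its reverse complement. The windows are chr9:57697363-57697612 (plus strand) for Cyp1a1, chr17:79715062-79715311 (minus strand) for Cyp1b1 and chr13:74292332-74292581 (minus strand) for Ahrr.
Cyp1a1: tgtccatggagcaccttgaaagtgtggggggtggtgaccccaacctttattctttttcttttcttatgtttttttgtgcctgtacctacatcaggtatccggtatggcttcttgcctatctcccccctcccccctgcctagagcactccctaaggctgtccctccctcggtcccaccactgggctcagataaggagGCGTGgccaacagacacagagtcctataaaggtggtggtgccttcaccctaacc
Cyp1b1: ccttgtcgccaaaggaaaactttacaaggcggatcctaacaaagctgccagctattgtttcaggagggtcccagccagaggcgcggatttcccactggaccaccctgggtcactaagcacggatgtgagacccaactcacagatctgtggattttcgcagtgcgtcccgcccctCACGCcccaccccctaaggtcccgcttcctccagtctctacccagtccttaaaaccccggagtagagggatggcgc
Ahrr: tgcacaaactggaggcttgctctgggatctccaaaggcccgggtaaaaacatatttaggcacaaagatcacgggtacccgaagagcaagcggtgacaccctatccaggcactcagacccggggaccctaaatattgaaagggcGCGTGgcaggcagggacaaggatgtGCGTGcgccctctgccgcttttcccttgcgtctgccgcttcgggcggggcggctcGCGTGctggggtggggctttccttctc

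In the mitotic genes the capitals mark CCAAT, the box bound by NF-Y, and TTTGAA, the CHR element, or their reverse complements. The windows are chr3:88081801-88082050 (plus strand) for Iqgap3, chr7:135716380-135716629 (minus strand) for Mki67, chr4:118437344-118437593 (minus strand) for Cdc20, chr9:70421555-70421804 (minus strand) for Ccnb2, chr2:69206214-69206463 (minus strand) for Spc25, chr3:135212313-135212562 (plus strand) for Cenpe and chr11:117848987-117849236 (plus strand) for Birc5. Spc25 and Cenpe hold CCAAT but not TTTGAA, Iqgap3 holds TTTGAA but not CCAAT, and Birc5 holds neither.
Iqgap3: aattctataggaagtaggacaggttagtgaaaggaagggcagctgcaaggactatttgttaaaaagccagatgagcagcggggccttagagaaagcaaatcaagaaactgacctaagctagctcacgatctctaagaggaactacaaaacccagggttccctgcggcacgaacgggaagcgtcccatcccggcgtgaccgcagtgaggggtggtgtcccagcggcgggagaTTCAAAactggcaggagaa
Mki67: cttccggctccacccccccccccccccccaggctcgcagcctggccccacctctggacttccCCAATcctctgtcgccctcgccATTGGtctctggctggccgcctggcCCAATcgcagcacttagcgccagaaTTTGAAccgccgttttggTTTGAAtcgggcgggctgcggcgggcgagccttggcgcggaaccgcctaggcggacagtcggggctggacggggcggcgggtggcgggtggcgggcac
Cdc20: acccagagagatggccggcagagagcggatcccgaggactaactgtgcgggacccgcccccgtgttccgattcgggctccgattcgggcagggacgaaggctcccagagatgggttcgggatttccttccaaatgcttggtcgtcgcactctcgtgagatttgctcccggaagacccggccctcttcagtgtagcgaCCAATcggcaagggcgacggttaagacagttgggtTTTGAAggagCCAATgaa
Ccnb2: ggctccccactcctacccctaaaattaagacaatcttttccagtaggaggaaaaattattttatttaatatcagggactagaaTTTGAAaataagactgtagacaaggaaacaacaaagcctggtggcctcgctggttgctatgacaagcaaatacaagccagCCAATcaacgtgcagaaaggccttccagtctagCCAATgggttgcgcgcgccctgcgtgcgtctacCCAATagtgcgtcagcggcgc
Spc25: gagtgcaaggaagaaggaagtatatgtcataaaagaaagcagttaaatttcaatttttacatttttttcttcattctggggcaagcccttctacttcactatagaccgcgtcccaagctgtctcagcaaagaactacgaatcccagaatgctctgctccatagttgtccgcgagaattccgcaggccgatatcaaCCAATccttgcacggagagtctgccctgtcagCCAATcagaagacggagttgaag
Cenpe: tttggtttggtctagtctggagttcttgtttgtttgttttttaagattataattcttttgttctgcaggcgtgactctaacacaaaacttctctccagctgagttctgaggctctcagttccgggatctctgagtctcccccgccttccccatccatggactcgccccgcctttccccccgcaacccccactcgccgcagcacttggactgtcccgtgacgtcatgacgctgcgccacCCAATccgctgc
Birc5: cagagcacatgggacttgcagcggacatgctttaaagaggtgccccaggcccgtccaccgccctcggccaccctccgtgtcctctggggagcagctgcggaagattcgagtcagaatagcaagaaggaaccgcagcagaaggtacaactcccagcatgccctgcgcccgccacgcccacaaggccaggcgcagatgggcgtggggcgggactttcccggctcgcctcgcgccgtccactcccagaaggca
A CCAAT box was found in 25 of the 32 promoter windows matched to a list of 39 mitotic genes (78.1%) and in 33.8% of all 32851 windows. TTTGAA was found in 11 of those 32 windows (34.4%), in 16% of all windows, in 40% of the AhR target windows and in 12.5% of the windows of DNA replication genes. CCAAT was found in 62.5% of the replication windows and 20% of the AhR target windows. GCGTG was found in 4 of 10 windows of the AhR targets (40%), but also in 16 of the 32 mitotic windows (50%) and in 28.2% of all windows. Matches of such short motifs are a description of the letters and not of binding.

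The 20 lung arrays lay on 5 slides, each with 1 array of every group, and a group took the same place on all slides, so that the place on the slide and the dose cannot be told apart. Slides therefore pair a D1 mouse with a D3 mouse (mice 7 and 17, 8 and 18, 9 and 19, 10 and 20, and 6 and 16), and arrays of a slide deviated from their group means together. For this reason results are given both from the limma fit without the slide and from the limma fit with the slide as a block. The slide of mice 8 and 18 was brighter than the others. On its arrays 84.1 to 90.8% of probes were well above background in Cy5, against 54.3 to 71.1% on the other slides. No spot was saturated in Cy5. The lung was recognisable on all 10 arrays by its markers, with the mean log2 ratio of alveolar type 2 cell genes between 4.50 and 5.08 in every mouse.

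Few probes differed between the highest and the lowest dose, and those past both limits were all higher at the highest dose. Without the slide, 1 of 55681 probes passed an adjusted p of 0.05 with a fold change of at least 1.5 (0.0018% of probes), for Iqgap3, and none was lower at the highest dose (0%). The unadjusted p was under 0.05 for 2081 probes, 1191 higher and 890 lower. That is a smaller share of all probes than the 0.05 that this limit passes where nothing differs. With the slide as a block, 21 probes passed both limits and all of them were higher at the highest dose (0.0377% of probes, with 0% lower). These 21 probes named 19 genes, among them 3 AhR targets (Cyp1a1, Cyp1b1, Ahrr), 12 genes of mitosis and cell division (Iqgap3, Tacc3 and Kif22, which are not on the list of mitotic genes, were grouped there after their values were seen), the ribonucleotide reductase subunit Rrm2, the p53 target Cdkn1a and Ddah1, with Mki67 on 2 probes and 1 probe without a gene name. Over 20018 named genes, each by its brightest probe, the adjusted p with the block was at most 0.05 for 23 genes that were higher (0.115%) and 1 that was lower (0.005%). That one was Hs3st6, a heparan sulfate sulfotransferase, whose difference of −0.44 stayed under the fold limit and whose adjusted p was 0.00837 in the limma fit with the block. The call of Iqgap3 without the slide was lost without mouse 7, 10, 18 or 19 (limma adjusted p up to 0.0803). With the block, 5 probes were called without mouse 10 or without mouse 19, 8 without mouse 16, 10 without mouse 17, 11 without mouse 6 or 18, 12 without mouse 7 or 9, 15 without mouse 8 and 31 without mouse 20. The log ratios written by the scanner software gave no call in either fit. The unadjusted p in limma was then under 0.05 for 1731 probes without the block and 3733 with it. The first lies below a share of 0.05 of all probes and the second above it.

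Cyp1a1, which hydroxylates planar hydrocarbons, had the largest difference. Its log2 ratio in the D1 mice 7, 8, 9, 10 and 6 was 4.53, 3.82, 0.44, 0.33 and 1.96. In the D3 mice 17, 18, 19, 20 and 16 of the same slides it was 5.86, 7.33, 4.14, 5.65 and 7.95. The groups overlapped, since D3 mouse 19 lay below D1 mouse 7, but the D3 mouse was the higher one on all 5 slides, by 1.33 to 5.99. The means were 2.22 ± 1.9 and 6.19 ± 1.5 (SD, n = 5 each), a difference of 3.97 ± 0.98 (SE), or 15.7-fold. The adjusted p was 0.702 in the limma fit without the slide and 0.020 with it, and the two-sided exact permutation p over the 10 mice was 0.0159, where the smallest that 5 against 5 allows is 0.00794. The vehicle mean was 1.95 and the middle-dose mean 4.47. The mean of the lowest dose thus lay near that of the vehicle, though its mice ran from 0.33 to 4.53. The spot of D1 mouse 10 was not well above background, while those of the other 4 D1 mice and of all 5 D3 mice were.

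Cyp1b1, which oxidises hydrocarbons outside the liver, separated the doses fully. The D1 mice had −0.53, −0.46, −1.26, −0.98 and −1.35 in the same order of slides, and the D3 mice 0.52, 3.24, 0.78, 3.22 and 0.56. Every D3 mouse was above every D1 mouse, and mice 18 and 20 were far above the other 3. The difference was 2.58 ± 0.45 (SE), or 5.98-fold. The adjusted p was 0.108 in the limma fit without the slide and 0.020 with it, and the exact permutation p was 0.00794. Any full separation of 5 against 5 mice gives this permutation p. Here and below it therefore repeats the separation, and it is unadjusted. The vehicle mean was −1.98 and that of the middle dose −0.46.

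Ahrr encodes a repressor that competes with AhR for ARNT. Its probe gave 0.55, 0.11, 0.17, 0.32 and 0.12 in the D1 mice and 0.94, 2.49, 1.77, 2.89 and 1.59 in the D3 mice, again without overlap, with mouse 17 the lowest of the D3 mice. The difference was 1.68 ± 0.28 (SE), or 3.21-fold (limma, adjusted p = 0.0573 without the slide and 0.020 with it, and exact permutation p = 0.00794). A second Ahrr probe, well above background on 1 array of each dose, differed by 0.27. On the slide of mice 7 and 17 all 3 genes had their smallest difference, 1.33 for Cyp1a1, 1.05 for Cyp1b1 and 0.39 for Ahrr. With the block, the call of Cyp1a1 was lost without mouse 6, 9, 10, 16, 18, 19 or 20, that of Cyp1b1 without mouse 6, 8, 9, 10 or 18, and that of Ahrr without mouse 6, 8, 9, 10, 18 or 19 (limma adjusted p up to 0.100 for each), while their differences stayed at or above 3.30, 2.14 and 1.41.

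The remaining AhR targets did not pass. Of 11 listed targets, 3 had an unadjusted p under 0.05 in the fit without the slide, all higher, and 2 separated the doses without overlap. Over all named genes 2.53% were higher at an unadjusted p under 0.05 and 1.49% lower, and 0.5% were higher and 0.245% lower without overlap. The median difference of the 11 targets was 0.14, that of all named genes 0.00. The quinone reductase Nqo1 differed by 0.41 (limma adjusted p with the block 0.565), and was higher on 4 of 5 slides. Tiparp, an ADP-ribosyltransferase that limits AhR signalling, differed by 0.15 and the aldehyde dehydrogenase Aldh3a1 by −0.31. The probe of Cyp1a2, an enzyme typical of liver, was well above background in 1 mouse of each dose and differed by 0.08, which was −0.05 with the log ratios of the scanner software. Of the receptor and its partners, Ahr differed by −0.17, Arnt by 0.03 and the chaperone gene Hsp90ab1 by −0.25, and none of the 7 members passed.

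**Figure D1:**
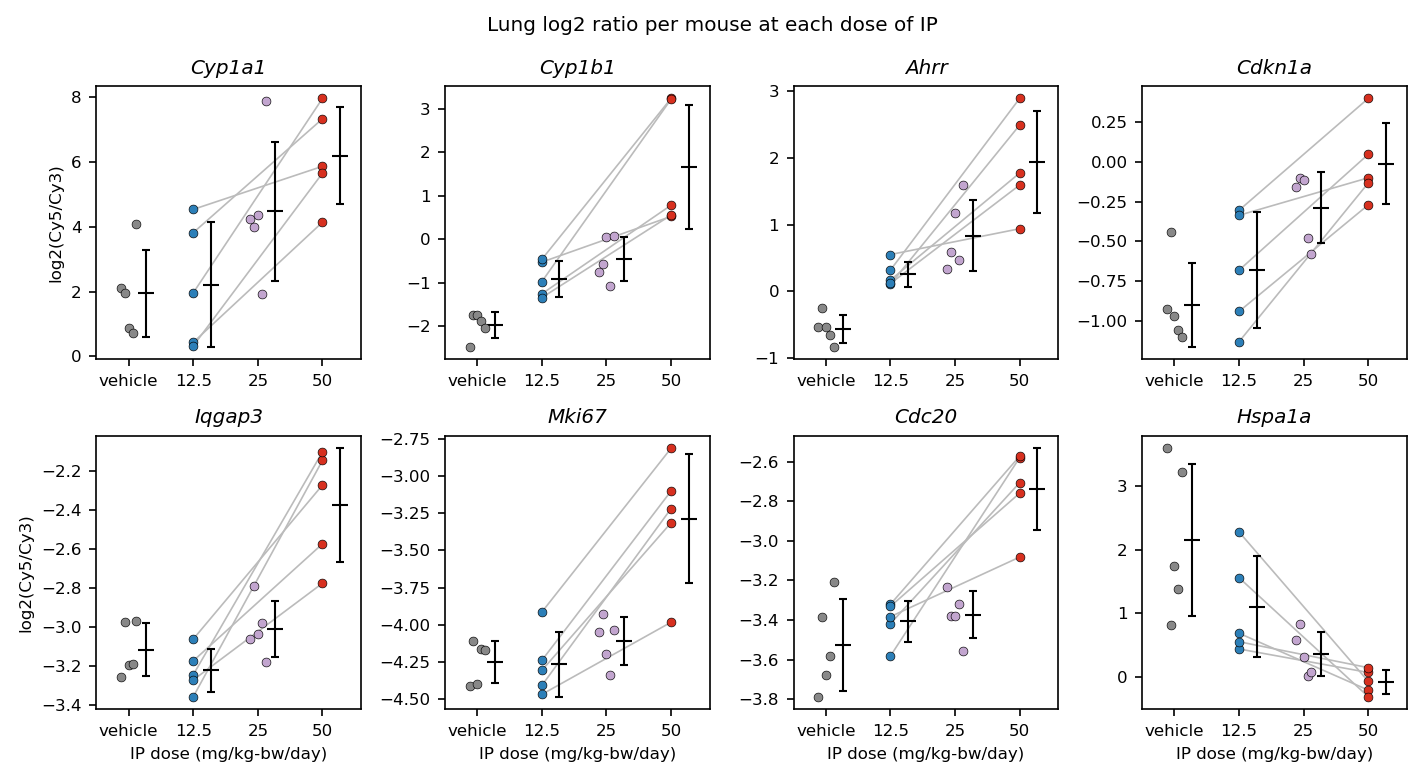
Log2 ratio of lung to reference RNA (y axis of each panel) against the dose group (vehicle and 12.5, 25 or 50 mg/kg-bw/day) for 8 genes. Points are mice, bars are means ± SD of 5 mice, and grey lines join the 12.5 and 50 mg/kg-bw/day mice of 1 slide: every line rises for Cyp1a1, Cyp1b1, Ahrr, Cdkn1a, Iqgap3, Mki67 and Cdc20 and every line falls for Hspa1a.

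Of 39 genes of the mitosis list, 9 were called with the block by their brightest probe, as were 18 of all 20018 named genes. The list was chosen with earlier results of these data known. Iqgap3, outside that list, a scaffold protein of proliferating cells that binds small GTPases, was the gene called in both fits. The D1 mice had −3.36, −3.06, −3.24, −3.27 and −3.17 and the D3 mice −2.15, −2.27, −2.10, −2.78 and −2.57, with no overlap. The means of −3.22 ± 0.11 and −2.37 ± 0.29 (SD, n = 5) differed by 0.85 ± 0.11 (SE), or 1.8-fold, with an adjusted p of 0.012 in limma without the slide and 0.00455 with it. The vehicle mean was −3.12 and the middle-dose mean −3.01. In bulk tissue, more dividing cells and more RNA of such genes per cell cannot be told apart, and the log2 ratios of these genes to the pool of cell lines were far below 0 in every lung.

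Mki67, the proliferation antigen Ki-67, gave −4.41, −4.24, −3.91, −4.47 and −4.31 in the D1 mice and −3.22, −3.10, −2.81, −3.98 and −3.31 in the D3 mice. D3 mouse 20 fell within the D1 range and the other 4 lay above it. The difference was 0.98 ± 0.15 (SE), or 1.97-fold (limma, adjusted p = 0.0573 without and 0.00462 with the slide, and exact permutation p = 0.0159). The second Mki67 probe differed by 0.85, with an adjusted p in limma of 0.409 without and 0.0151 with the slide.

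Cdc20, the activator of the anaphase-promoting complex, gave −3.58, −3.42, −3.32, −3.38 and −3.33 at the lowest dose. At the highest dose it gave −2.58, −2.71, −2.57, −3.08 and −2.76, all above the D1 mice. The difference was 0.67 ± 0.11 (SE), or 1.59-fold (limma, adjusted p = 0.0573 without and 0.020 with the slide, and exact permutation p = 0.00794). Cenpe, the kinesin that carries chromosomes to the spindle equator, also separated the doses, with −4.65, −4.43, −4.28, −4.53 and −4.65 against −3.85, −3.36, −3.39, −4.14 and −3.91. Its difference was 0.78 ± 0.14 (SE), and its adjusted p in limma was 0.121 without and 0.00553 with the slide.

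The kinetochore gene Spc25 had the largest difference of the mitotic genes, 1.07 ± 0.22 (SE), or 2.11-fold. It gave −4.31, −3.71, −3.64, −4.37 and −4.23 in the D1 mice and −2.76, −2.68, −2.43, −3.97 and −3.06 in the D3 mice, with an adjusted p of 0.303 in limma without the slide and 0.020 with it. Birc5 (survivin), a subunit of the chromosomal passenger complex, differed by 1.01 ± 0.16 (SE) (limma, adjusted p = 0.0573 and 0.00462), but its other 2 probes differed by 0.32 and 0.01. The cyclin gene Ccna2 differed by 0.89, Pimreg by 0.84, the spindle genes Tacc3 and Tpx2 by 0.60 and 0.59, the chromosome-binding kinesin Kif22 by 0.60 and Racgap1, a regulator of cytokinesis, by 0.59. Their adjusted p in limma with the block lay between 0.00462 (Tacc3) and 0.0443 (Kif22). Tpx2 and Racgap1 lay just over the fold limit. The second Racgap1 probe differed by 0.40. The second Tpx2 probe, well above background on 1 D1 and 2 D3 arrays, differed by 0.05. With the block, the cyclin gene Ccnb2 (0.58), the kinase genes Melk (0.52) and Aurka (0.47) and Anln (0.50), which organises the contractile ring, passed the adjusted p but not the fold limit. When each of the 10 mice was left out in turn, Iqgap3, Birc5, Cenpe and the first Mki67 probe were called with the block every time. Tacc3 passed the adjusted p every time but lay under the fold limit without mouse 7, 17 or 19, whereas Cdc20, Ccna2 and Spc25 were called in 1, 1 and 2 of the 10, the fit without mouse 20 among them.

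**Figure D2:**
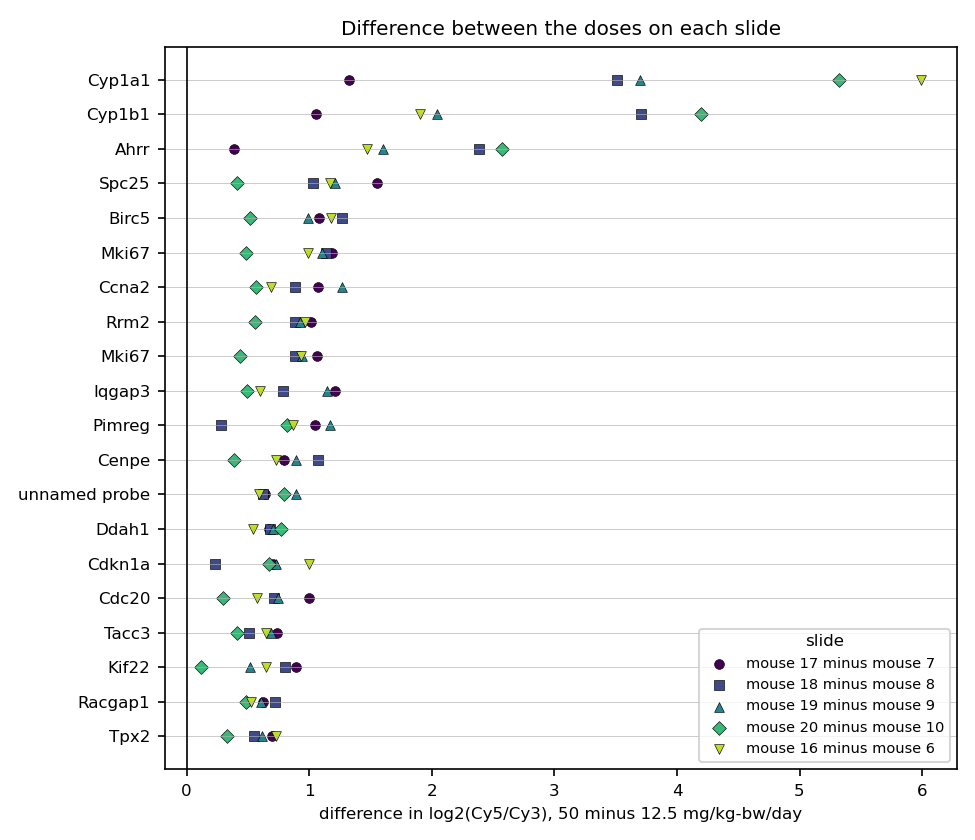
Difference of log2 ratio between the 50 and the 12.5 mg/kg-bw/day mouse of a slide (x axis) for 20 of the 21 probes called with the slide as a block (rows), with 1 point per slide. All points lie above 0, from 0.39 to 2.57 for Ahrr, for example, and the probes of Cyp1a1 and Cyp1b1 spread the most.

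Over the list of 39 mitotic genes the shift was broad. The D3 mean was above the D1 mean for 38 genes, 25 had an unadjusted p under 0.05 without the slide, all higher (2.53% of all named genes), and 12 passed the adjusted p with the block (0.115% of all named genes). In 27 of the 39 genes the D3 mouse was higher on all 5 slides, as in 1053 of 20018 named genes. The median difference was 0.41, against 0.00 over all named genes. The cytokinesis genes Kif20a (0.67), Prc1 (0.62) and Ect2 (0.56), the topoisomerase gene Top2a (0.41) and the kinase gene Plk1 (0.33) were among the 25 without passing the adjusted p, and Kif20a missed it narrowly (0.0501 in limma with the block). Cdk1 differed by 0.10, Aurkb by 0.09 and Ndc80 by 0.01. Hmmr alone was lower, by −0.15. Its unadjusted p was 0.0726 in limma and its exact permutation p 0.151.

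The D3 mice were not alike in these genes. The mean of the 39 mitotic genes was −3.24, −2.71, −3.00, −3.29 and −3.24 in the D1 mice and −2.56, −2.36, −2.48, −3.06 and −2.77 in the D3 mice. D3 mouse 20 was below D1 mice 8 and 9, and was the lowest of the D3 mice in 29 of the 39 genes (74.4%), as in 24.2% of all named genes. The same mouse was the highest of the D3 mice in 5 of the 11 AhR targets (45.5%), among them Ahrr, and in 15.0% of all named genes. D1 mouse 8 was the highest D1 mouse in 25 of the 39 genes and D3 mouse 18 the highest D3 mouse in 19. Both lay on the bright slide, where these mice were also the highest of their dose in 31.3% and 31.0% of all named genes. Without mouse 20, 14 probes were called without the slide and 31 with it. Without the bright slide, 2 and 7 probes were called, respectively, and the median of the mitotic genes was 0.44. Of those 7 probes, 3 were among the 21.

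**Figure D3:**
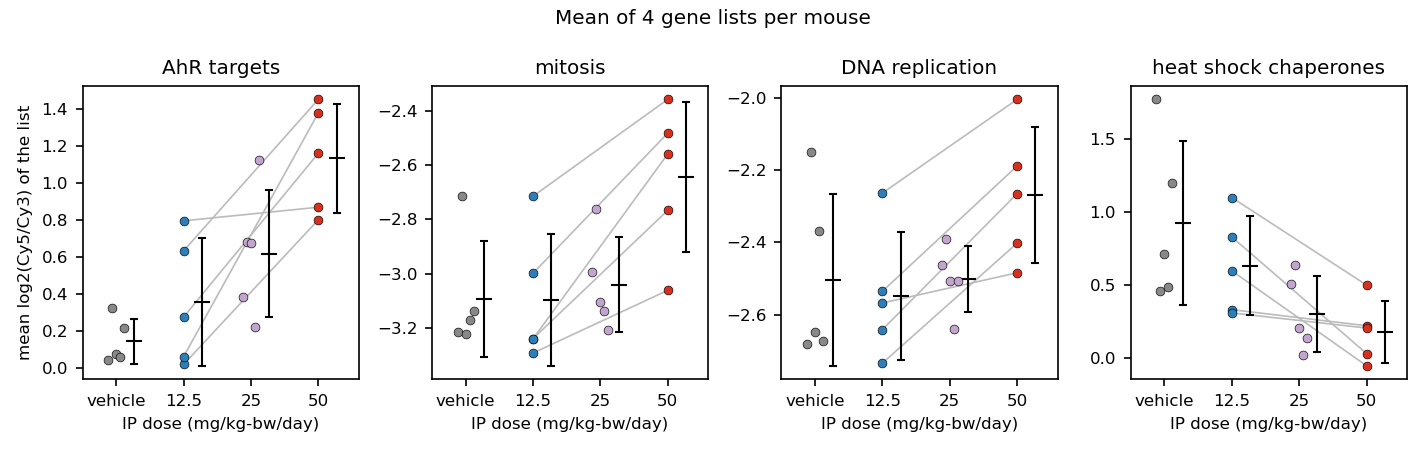
Mean log2 ratio of the members of 4 gene lists (y axis) in each mouse against the dose group, with bars for mean ± SD of 5 mice. At 50 mg/kg-bw/day the mean of the mitotic genes lies between −3.06 (mouse 20) and −2.36 (mouse 18). The mean of the AhR targets lies between 0.80 and 1.45 against 0.02 to 0.80 at 12.5 mg/kg-bw/day, so the 2 doses nearly meet. Most of its difference comes from Cyp1a1, Cyp1b1 and Ahrr. The median difference of the 11 targets is 0.14, and 4 of them are lower at the highest dose.

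Genes of DNA replication lay on the same side with smaller differences. Of 27 genes, 25 were higher at the highest dose (10307 of 20018 named genes), 11 of them at an unadjusted p under 0.05 (2.53% of all named genes) and none lower, and the median difference was 0.25. Rrm2, which supplies deoxynucleotides, passed with the block. It gave −4.42, −4.34, −4.33, −4.91 and −4.83 in the D1 mice and −3.41, −3.46, −3.41, −4.35 and −3.86 in the D3 mice, a difference of 0.87 ± 0.18 (SE) (limma, adjusted p = 0.356 without and 0.0167 with the slide). That call was lost without mouse 6, 7, 10, 16, 17, 18 or 19 (adjusted p in limma up to 0.0816). Mcm6, a subunit of the replicative helicase, differed by 1.07 ± 0.24 (SE) with no overlap between the doses, −3.84, −3.88, −2.96, −2.95 and −3.90 against −2.82, −2.05, −2.43, −2.27 and −2.63. Its adjusted p was 0.505 in limma without the slide and 0.164 with it. The vehicle mean of Mcm6 was −2.96 and the D1 mean −3.51, so the lowest dose was the lowest group. Mcm3 (0.44) also separated the doses, and Uhrf1, which maintains DNA methylation at replication, differed by 0.75. The licensing genes Cdc6 (−0.02) and Orc1 (−0.03) were the pair with a lower mean.

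Of 20 listed p53 targets for arrest, repair and feedback, 16 were higher at the highest dose with a median of 0.10, and 2 had an unadjusted p under 0.05 (2.53% of all named genes), Phlda3 and Plk2. Cdkn1a, which encodes the cyclin-dependent kinase inhibitor p21, was called with the block on 1 of its 2 probes. That probe gave −0.30, −0.34, −0.68, −0.94 and −1.13 in the D1 mice and 0.40, −0.10, 0.05, −0.27 and −0.13 in the D3 mice, with no overlap. The difference was 0.67 ± 0.16 (SE), with an adjusted p of 0.686 in limma without the slide and 0.0167 with it and an exact permutation p of 0.00794. With the block the call was lost without mouse 6, 9, 10, 16, 17 or 19 (limma adjusted p up to 0.0804). The brighter probe differed by 0.41, with an adjusted p of 0.532 with the block, so the 2 probes were not called alike.

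Bax, an effector of apoptosis under p53, gave −0.57, −0.74, −0.61, −0.81 and −0.43 in the D1 mice and −0.29, −0.42, −0.14, −0.32 and 0.03 in the D3 mice. All D3 mice lay above all D1 mice and the vehicle mean was −1.02. The difference of 0.40 ± 0.10 (SE) passed the adjusted p with the block (0.020, limma) below the fold limit, and no longer passed it without mouse 6, 9, 10, 16, 17 or 19 (up to 0.100). Phlda3, a repressor of AKT, differed by 0.44 (limma, adjusted p with the block 0.0745) and Plk2 by 0.30 (0.413). Mdm2, the ubiquitin ligase of p53, differed by 0.08 and was higher on all 5 slides. Over 14 genes of p53-dependent apoptosis the median was 0.00, and over 19 genes of DNA repair and checkpoints it was 0.11, where 16 of the 19 were higher.

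**Figure D4:**
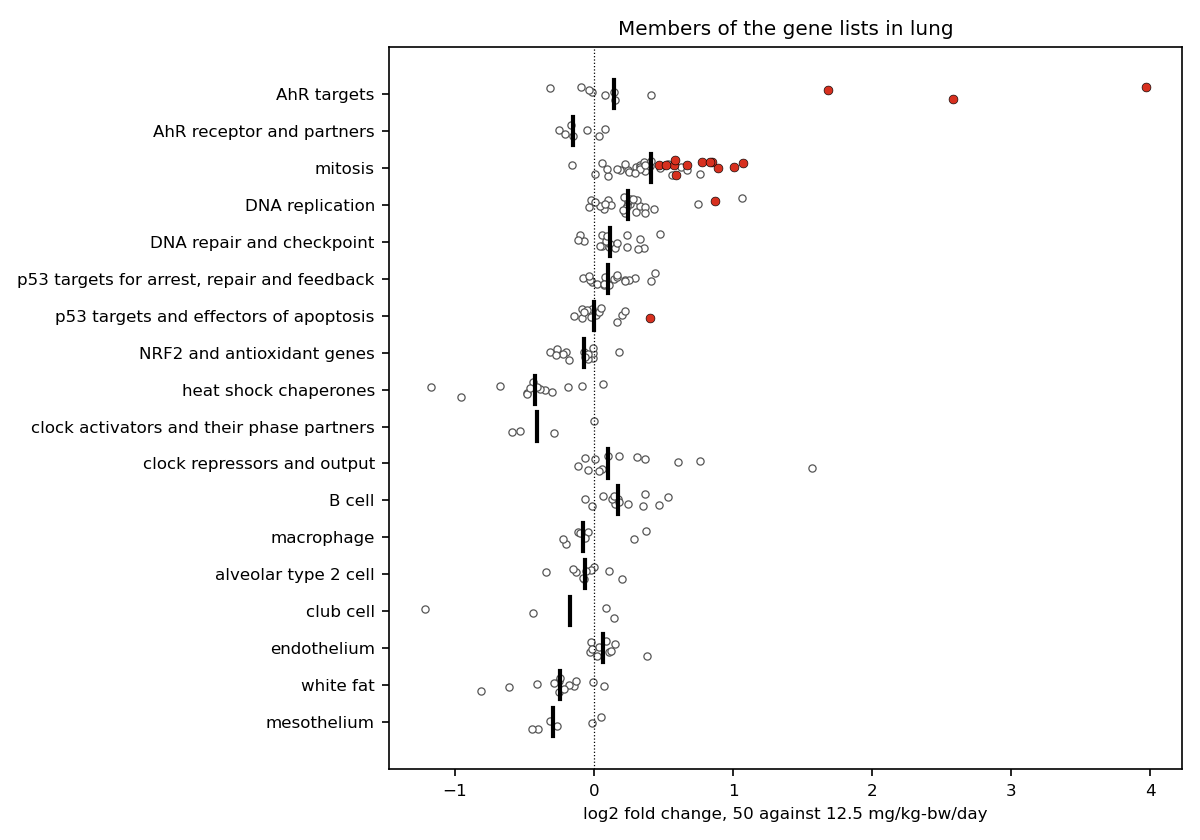
Log2 fold change between 50 and 12.5 mg/kg-bw/day (x axis) of the members of 18 gene lists (rows), 1 point per gene, with members at an adjusted p of at most 0.05 with the slide as a block in red and the median of each list as a black bar. The medians run from −0.42 for heat shock chaperones to 0.41 for mitosis, and the largest values are those of Cyp1a1, Cyp1b1 and Ahrr.

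Outside these groups, Ddah1, which degrades methylated arginines, was called with the block. It gave −0.35, −0.49, −0.43, −1.07 and −0.31 in the D1 mice and 0.32, 0.19, 0.28, −0.30 and 0.23 in the D3 mice, just without overlap. The difference was 0.67 (adjusted p = 0.271 without and 0.0243 with the slide in limma), and on its other probe 0.48. With the block, Ddah1 was called in 2 of the 10 fits that left out a mouse, those without mouse 6 and without mouse 20.

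Markers of the cell types that lung tissue or adhering tissue can hold did not pass. In 19 lists of such markers no member had an adjusted p of at most 0.05 with the block. The medians of the lists lay between −0.29 for mesothelium and 0.18 for B cells, and the latter was −0.08 without mouse 8. The mean of 13 B cell markers ran from 0.12 to 1.72 in the D1 mice and from 1.17 to 1.58 in the D3 mice. The mean of 8 macrophage markers ran from 3.02 to 3.81 and from 3.00 to 3.70, that of 4 club cell markers from 3.90 to 5.70 and from 3.25 to 5.29, and that of 9 heart muscle genes from 0.35 to 3.32 and from 0.22 to 2.94. Of the 13 white fat genes 12 had a lower mean at the highest dose, with a median of −0.24, and none had an unadjusted p under 0.05. The part of these cell types in the differences between the doses was not tested.

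The middle dose was not in the contrast and is given as a description. For 16 of the 21 probes called with the block the mean at 25 mg/kg-bw/day was nearer to the lowest dose and for 5 nearer to the highest. Among the mitotic genes it was nearer to the lowest dose for 35 of 39 and among the replication genes for 23 of 27. The same count over all named genes was not made. In mg/kg-bw/day the middle dose is itself nearer to the lowest, so a change in proportion to the dose would also lie nearer to the lowest. Ddah1 was 81.6% of the way from the lowest to the highest dose at the middle one. Cdkn1a was 58.7% of the way and Cyp1a1 56.9%. Iqgap3, by contrast, was 25.1% of the way.

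The same 2 doses were compared in liver and forestomach of the series. In the joint limma fit of all 58 arrays the difference between doses was compared between tissues. For no probe did it differ between lung and liver or between lung and forestomach at an adjusted p of 0.05 (0% in each case). The unadjusted p in limma was under 0.05 for 1371 and 1692 probes, respectively. Both are smaller shares of all probes than the 0.05 that this limit passes where nothing differs. Cyp1b1 differed between the doses by 0.33 in liver and 0.09 in forestomach, which was 2.24 and 2.49 less than in lung (limma, adjusted p = 0.510 and 0.0979). Ahrr differed by 0.11 and 0.08, which was 1.58 and 1.61 less than in lung (adjusted p = 0.274 and 0.0979 in the same fit). Cyp1a1 differed by 0.48 in liver, where no D1 and 3 of 5 D3 arrays were well above background, and by 0.84 in forestomach, which was 3.49 and 3.13 less than in lung (adjusted p = 1.00 for both in that fit). The median of the 39 mitotic genes was 0.15 in liver and −0.02 in forestomach, and Cdc20 differed by 0.76 in liver, 0.67 in lung and 0.10 in forestomach.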

How the data were processed

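RNA of single lungs was measured on dual-colour Agilent arrays. The authors scanned the arrays with Agilent Feature Extraction 10.7.3.1, whose output holds, per the file headers, a median Cy5 and Cy3 intensity for every spot and a log10 ratio. The authors also deposited normalised log2 ratios, which together with the scanner's log10 ratio served as alternatives. No background was subtracted in the main analysis, as in the study's methods.

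Here control spots and flagged outliers were left out, log2 ratios of the median intensities were normalised within arrays by loess, and spots of a probe were averaged, leaving 55681 probes, 26413 of them with 1 gene name. limma 3.58.1 in R 4.3.3 fitted the 4 lung groups together, and p-values were adjusted by Benjamini-Hochberg over all probes. The paper counts 4 vehicle mice for IP at necropsy, while 5 vehicle lung arrays are labelled. All 5 were used in the fit and in the vehicle means. The limits for a call were 0.05 for the adjusted p and 1.5-fold for the change. The number of arrays limits the precision. Residuals of arrays on 1 slide correlated for each pair of D1 and D3 mice (r = 0.22, 0.59, 0.33, 0.32 and 0.56, against at most 0.13 with another slide), so the shared slide pairs the samples and the fit with slide as a fixed block is given beside the other. The difference between tissues was fitted over 58 arrays in 12 groups. A gene of a list is given by its brightest probe. Genes were named by a rule, up to 12 called genes in each direction, filled from calls with the block, plus list members. The lists and the comparison itself were chosen with earlier results of these data known. Of 497 list entries 12 were not matched. The methods' Fs statistic used 100 residual shuffles. Further alternatives were normexp (offset 50), applied to the median signals because the scanner files used here have no mean signals, median-centring, the Cy5 channel alone, probes well above background on fewer than 5 of the 10 arrays left out, trended and robust limma, array weights, and each mouse left out. Scripts were tested on simulated data. Promoters are from RefSeq, GRCm38.p6. Some called or listed genes are not reported here.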

Additional observations from a re-analysis of the deposited data

Results flagged for a closer look

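In 134 groups of 5 mice 12 values stood apart from the other 4, where chance alone marks about 1 group in 20. Mouse 20 was the sample apart in 8 of them, at the highest dose, and was the lowest of its group in each. Its log2 ratios were −2.88 for Ccnb2, −2.58 for Plk1, −3.17 for Kif22, −3.67 for Tacc3, −2.50 for Mcm3, −4.67 for Uhrf1, −0.30 for Ddah1 and 2.14 for Hs3st6. On the same slide D1 mouse 10 stood apart for Ddah1, at −1.07. D1 mouse 8, on the bright slide, was the highest of its group for Ccng1 (−0.23) and for the mean of 19 genes of DNA repair and checkpoints (−1.34). D1 mouse 9 was the highest for Birc5, at −4.08.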

How the results depend on the processing

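Without the slide, 1 probe was called, and the count was 21 with the slide as a replicate block, 0 with both groups fitted alone and 18 with both groups alone and the block. It was 5 with normexp, 3 with array weights, 2 without the bright slide, 4 with 1 probe per gene, 549 (339 higher, 210 lower) at an unadjusted p under 0.05 with a fold of 1.2, and 0 with median-centring, the Cy5 channel alone, the scanner's log ratio, trended and robust limma or the Fs statistic. Leaving out 1 mouse gave 0 to 14. With the block, 21 probes became 0 with the scanner's log ratio and 7 without the bright slide, and 5 to 31 when a mouse was left out, while the other alternatives gave 16 to 29. Leaving out the bright slide, and these changes to the fit with the block, were chosen after seeing the data. Of the 21, 18 were called with normexp, 21 with median-centring, 20 with the deposited ratios and 13 with Cy5 alone. The lung-liver difference had 0 probes, and 0 to 2 when an array was left out, the lung-forestomach difference 0, and 0 to 4. Cyp1a2 was at −0.052 with the scanner's log ratio with and without the block. The median of the NRF2 genes was 0.021 with median-centring, and that of B cell markers lay between −0.083 (without mouse 8) and 0.30 (without mouse 6) when a mouse was left out and was −0.10 without the bright slide. The causes were not tested.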

Other observations

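Heat shock chaperones lay on the other side of the comparison. Of 14 listed genes 13 had a lower mean at 50 than at 12.5 mg/kg-bw/day, 7 of them at an unadjusted p under 0.05 in limma (1.49% of all named genes were lower at that p), and the median was −0.42. None passed the adjusted p in either fit. Hspa1a, the inducible HSP70, gave 2.28, 0.69, 1.56, 0.44 and 0.56 in the D1 mice 7, 8, 9, 10 and 6 and −0.06, −0.20, −0.30, 0.08 and 0.15 in the D3 mice 17, 18, 19, 20 and 16. The doses did not overlap, and the difference was −1.17 ± 0.42 (SE), with an adjusted p of 1.00 in limma without the slide and 0.336 with it and an exact permutation p of 0.00794. The mean was 2.15 in the vehicle mice and 0.37 at the middle dose, so the groups stood in the order of dose from vehicle to the highest. The co-chaperones Hsph1 and Dnaja1 differed by −0.96 and −0.67 and the mitochondrial chaperonin Hspd1 by −0.48, with adjusted p-values of 0.336, 0.353 and 0.292 in limma with the block. In liver and forestomach Hspa1a differed by −0.99 and −0.54, and the medians of the 14 genes were −0.15 and −0.11.

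No gene of the circadian clock passed the adjusted p or separated the doses. Of 4 activators and their phase partners 2 were lower at an unadjusted p under 0.05 (1.49% of all named genes), and of 13 repressors and output genes 1 was higher (2.53%). Arntl (BMAL1), an activator of the clock, differed by −0.59 and was higher on 1 of 5 slides. Nfil3, a repressor of clock output, differed by −0.53 and was lower on all 5 slides. Dbp, an output gene of opposite phase, differed by 1.57 and Nr1d1 by 0.76. The 4 adjusted p-values in limma with the block lay between 0.182 and 0.563. Dbp ranged from −2.81 to 0.71 among the D1 mice and from 0.18 to 0.98 among the D3 mice. The hour at which each mouse was killed is not given in the sources used here. Of 15 genes of NRF2 and antioxidant defence 14 had a lower mean at the highest dose, among them Gsta3 (−0.32) and Gclc (−0.26). The median of the 15 was −0.07, and 0.02 when arrays were only median-centred. Mouse 7 was the highest D1 mouse in 11 of the 15 (73.3%), as in 17.8% of all named genes. The list mean was 1.04 in mouse 7, 0.56 to 0.76 in the other D1 mice and 0.51 to 0.68 in the D3 mice.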
